A study of Drosophila melanogaster with 22 samples.

Results

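The protein-coding genes of the fourth chromosome, the smallest chromosome of Drosophila melanogaster, were followed in RNA of anterior ovarioles over the first 8 days of adult life. Genes were taken by the annotation deposited with the data, of FlyBase release 6: those on the sequence named 4 with an annotated mRNA, leaving out bt, ci, pho, RpS3A and every symbol beginning with eIF, ATPsyn or ND-. Of 79 such genes, 7 were left out by name (bt, ci, pho, RpS3A, eIF4G, ATPsynbeta and ND-49), which gave 72 genes out of 17478 in the count table. Another 32 genes of this chromosome have no annotated mRNA. The rule itself uses no measured value, but it was chosen with earlier results of these data known.

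The fourth chromosome is known as the dot chromosome. Its genes lie among repeats in chromatin that carries heterochromatin protein HP1a, and many of them are nevertheless transcribed. The protein Pof binds transcribed genes of this chromosome in particular, and the methyltransferase egg places a silencing histone mark there in the female germline. The genes themselves have no shared function: they encode transcription factors, signalling receptors, synaptic proteins, RNA regulators and pumps.

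The flies were virgin w1118 females, white-eyed laboratory flies with no other allele or treatment named in the labels, kept at 25 °C. An anterior ovariole holds the germarium, with the germline and follicle stem cells, and the young egg chambers that follow it, and each sample pooled 30 to 50 ovarioles. PolyA RNA was sequenced from 2 libraries for days 1 and 4 after eclosion and from 3 libraries for every other day, 22 in all, described by the submitters as independent biological replicates. Ovarioles were cut after stage 8 on days 1 to 4 and after stage 7 on days 5 to 8, so age and dissection cannot be told apart between these 2 series. In such bulk samples, fewer cells of a type and less RNA per cell cannot be told apart either.

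Gene counts per library ranged from 1146915 to 9781870 on days 1 to 4 and from 2975582 to 4634327 on days 5 to 8. A count of 3, taken as the floor of detection, corresponded to 0.286 to 2.55 and to 0.683 to 1.03 CPM, the count relative to the normalised size of a library, a limit that covers counting error only. In 3 libraries, day 2 replicate 1, day 3 replicate 2 and day 4 replicate 2, the ERCC spike-in transcripts held 31, 19 and 52 counts. Every other library held at least 25577, and results were also computed without these 3 libraries. All 3 belong to the earlier series, where the libraries with spike-in held 1146915 to 2573634 gene counts, fewer than any later library. The part of depth in differences between the series was not tested. The germline list (vas, nos, osk, bam, otu and aub) summed to 2871 to 3610.3 CPM on days 1 to 4 and 2734 to 3798 CPM on days 5 to 8. The follicle cell list (tj, cas, Fas3, slbo, mirr and br) summed to 536 to 1129 CPM and 929.8 to 1312 CPM. As sums, both lists of the labelled tissue were thus present in every library. Most of the germline sum was osk (means of 2039 and 2420 CPM), and slbo alone ranged from 0 to 9.68 CPM.

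Most of the 72 genes were found in the ovariole. Counting a gene as detected at 1 CPM or more in at least 11 of the 22 libraries, 57 of the 72 genes were detected, or 79.2%. The same count was 53.1% for the 13799 genes with an mRNA on chromosome arms X, 2L, 2R, 3L and 3R, ranging from 49.1% on 2L to 61.5% on X. A count was recorded in every library for 52 of the 72 genes, and 46 reached 1 CPM in every library. At the other end, 4 genes reached 1 CPM in no library, and no gene was at 0 counts throughout. Those 4 were CG32006 with 8 counts summed over the 22 libraries, CG11231 with 5, JYalpha, a sodium and potassium pump subunit known from sperm, with 4, and Actbeta, an activin-type ligand, with 4. With a floor near or above 1 CPM in the shallowest libraries, these levels were not distinguishable from lower ones at this depth.

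The genes were also longer than those of the other chromosomes, a feature the choice did not use. The median gene span was 10473.5 bp against 2156 bp, the median of the joined exons 4356 bp against 1732 bp, and the median number of transcripts 3 against 2. Because a long transcript collects more reads at the same abundance, levels were compared between genes only as CPM per kb of joined exons. On this scale the median of the 72 genes was 8.19 CPM per kb, and that of the other chromosomes was 1.39, with 4.93 on X and 0.596 on 2L. The limit of 1 CPM for detection lets a long gene pass at a lower level per length. With a mean of at least 1 CPM per kb instead, a limit added after the data were seen, 50 of the 72 genes passed, or 69.4%, beside 51.5% on the other chromosomes and 58.9% on X. The median level of detected genes depended on which limit was used. It was 14.1 CPM per kb for the 57 genes past 1 CPM, against 17.6 for the 7332 such genes elsewhere, and 19.99 for the 50 genes past 1 CPM per kb, against 18.3 for 7105 elsewhere and 21.6 on X. No test was made of these differences, since genes are not replicates. The most abundant of the 72 stood at 111 CPM per kb, whereas the top of the X chromosome stood at 4663. That upper end depends on the choice of genes, since 7 genes of this chromosome were left out by name and none on the other arms. ATPsynbeta, which was left out, averaged 1471 CPM.

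**Figure D1:**
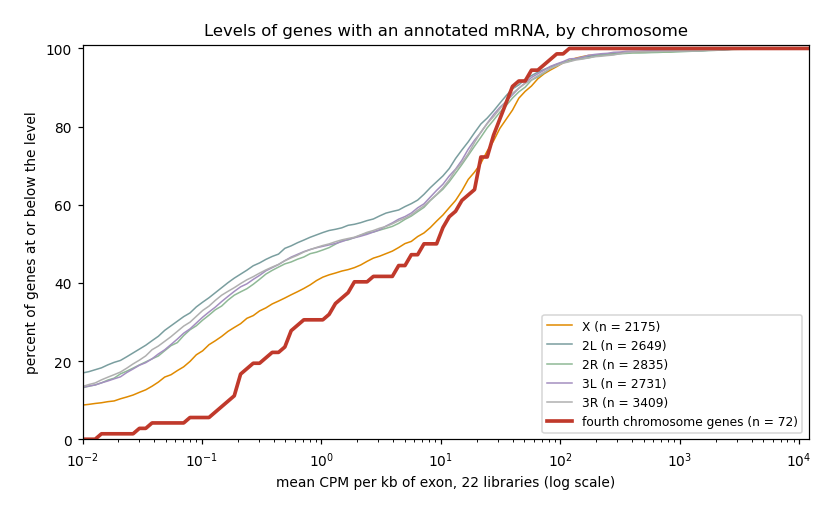
Cumulative curves of gene level, as mean CPM per kb of joined exons over 22 libraries on a log scale (x axis), against the percent of genes at or below that level (y axis), for the 72 genes of the fourth chromosome and the mRNA genes of the other arms. The curve of the fourth chromosome runs below the others at low levels, and it reaches 100 percent at 111 CPM per kb, where the other curves go on to higher levels. It lacks the 7 genes left out by name, ATPsynbeta among them, whereas no gene was left out by name on the other arms.

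Within the chromosome, levels spanned from 0.0134 CPM per kb (Actbeta) to 111 CPM per kb (CG11076). The genes fell into 34 above 10 CPM per kb, 16 from 1 to 10 and 22 below 1. Their median gene spans were 8857.5 bp, 12681.5 bp and 10502 bp. The count was concentrated: the 10 genes with the most counts held 56.4% of the reads of all 72. Those with the highest mean counts were gw at 562 CPM, CG11148 at 479, Ank at 321, PMCA at 320.1 and unc-13 at 319.6 CPM. Next to the threshold of 10 CPM per kb lay CG11360 at 10.4 inside and Ephrin at 9.91 outside, and next to that of 1 CPM per kb lay CG11155 at 1.16 and Sox102F at 0.706.

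High and low genes were interspersed along the chromosome. The longest run of neighbours above 10 CPM per kb held 5 genes between 1009895 and 1065001, namely PlexA, CG11077, CG11076, CaMKII and Zyx. A run of 4 such genes went from gw to myo (649041 to 696055). The longest run below 1 CPM per kb held dpr7, RhoGAP102A, NfI and Syt7 between 247124 and 306481. Across the 71 pairs of neighbours, the rank correlation of levels was 0.15, and over the 72 genes level and order along the chromosome had a rank correlation of 0.01. Both are descriptions over genes of the same libraries. At the border of low and high, Ekar, a kainate-type glutamate receptor gene, averaged 0.651 CPM and ended at 646556, and its next neighbour gw, the gene with the most counts, began at 649041.

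**Figure D2:**
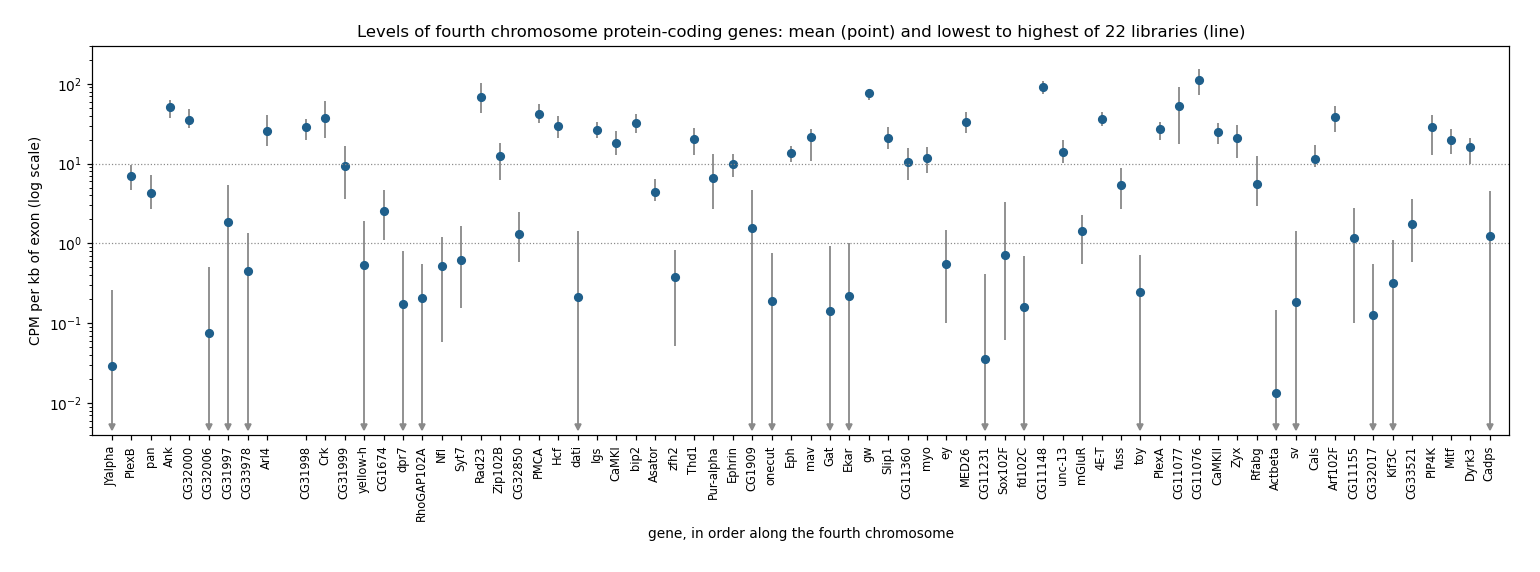
Level of 71 of the 72 genes in the order of the fourth chromosome (x axis), as mean CPM per kb of joined exons (points) with the lowest to highest of 22 libraries (lines, log y axis, arrows where a library had 0 counts). Genes above 10 CPM per kb (33 of those drawn, upper dotted line) and below 1 (22, lower dotted line) are interspersed.

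Genes of RNA regulation were among the most abundant. For gw, which encodes GW182, the partner of Argonaute in silencing by microRNAs, the level was 477 to 644 CPM (median 596) in the 10 libraries of days 1 to 4 and 464 to 642 CPM (median 558) in the 12 of days 5 to 8. CG11148, named Gyf in the current gene table and a repressor of translation, measured 393 to 539 CPM (median 467) in the 10 libraries of days 1 to 4 and 423 to 571 CPM (median 489.6) in the 12 of days 5 to 8. The third listed gene, 4E-T, whose protein binds the cap-binding factor eIF4E and holds mRNAs untranslated, measured 114 to 164 CPM (median 135) in the 10 libraries of days 1 to 4 and 108 to 149 CPM (median 131) in the 12 of days 5 to 8. The library ranges of each gene overlapped widely between the series, and per length these genes stood at 75.7, 90.9 and 35.8 CPM per kb. Between days 5 to 8 and days 1 to 4 none of the 3 passed the test.

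The sequence-specific transcription factors held the opposite place. Of 11 listed, 9 lay below 1 CPM per kb, and the list median was 0.380 CPM per kb. The exceptions were Mitf, a factor that activates lysosomal genes, at 19.8 CPM per kb, and pan, the TCF factor at the end of the Wingless pathway, at 4.23. The Pax factors of eye and bristle development were scarce: ey averaged 2.08 CPM with a range of 0.372 to 5.44, toy averaged 0.976 with a range of 0 to 2.82, and sv averaged 0.973 with a range of 0 to 7.49. For sv the highest values were the day 1 libraries, at 7.49 and 4.10 CPM, and 12 of the 22 libraries had a count. The other low factors were zfh2 at 4.73 CPM, Sox102F at 3.06, NfI at 2.48, dati at 1.30, onecut at 1.28 and fd102C, a forkhead factor, at 0.370 CPM. The listed transcription cofactors were mostly more abundant. MED26, a subunit of Mediator, averaged 171 CPM (33.7 per kb), Hcf, a chromatin cofactor, 240.1 CPM (29.3 per kb), and lgs, the adaptor that links beta-catenin to transcription in the Wingless pathway, 142 CPM (26.5 per kb). Pur-alpha, a nucleic acid binding protein, was lower at 19.4 CPM. Outside the lists, bip2, the TAF3 subunit of TFIID, averaged 144 CPM (31.9 per kb).

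Signalling genes differed by role. Of the ligands of the TGF-beta family, mav averaged 57.8 CPM (29.4 to 73.7 over libraries) and myo 46.0 CPM (29.9 to 63.8), while Actbeta had 4 counts in all. The semaphorin receptors PlexA and PlexB averaged 285 and 49.9 CPM, or 26.9 and 7.07 CPM per kb. The receptor kinase Eph averaged 79.2 CPM and its ligand Ephrin 52.6 CPM. Among kinases and adaptors, Crk, an adaptor of SH2 and SH3 domains, stood highest per length at 36.9 CPM per kb, followed by PIP4K, a phosphoinositide kinase, at 28.4, the small GTPase Arl4 at 25.8, the calcium-dependent kinase CaMKI at 18.1, Dyrk3 at 16.3 and the tau-tubulin kinase Asator at 4.40. The library ranges of PIP4K and Arl4, at 12.96 to 40.8 and 16.6 to 40.98 CPM per kb, overlapped, so their order was within the spread. Neither list had a gene that passed the test between series. CaMKII, a kinase of this chromosome that the list does not hold, did pass it (adjusted p = 0.0368 by edgeR).

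Synaptic genes were mostly low, and unc-13 and Cals were the members of the list above 10 CPM per kb. The list of 8 had a median of 0.936 CPM per kb, and Ekar, Gat, a GABA transporter, and dpr7 averaged under 1 CPM. The gene unc-13, which primes synaptic vesicles for release in neurons, measured 232 to 432 CPM (median 292) in the 10 libraries of days 1 to 4 and 244 to 444 CPM (median 345) in the 12 of days 5 to 8. That is 14.1 CPM per kb, since its joined exons span 22598 bases. Its count rests on a region with 3 annotated genes on the opposite strand, CR43425, CR44029 and CR43361, which averaged 0.740, 10.97 and 5.48 CPM. The calsyntenin gene Cals averaged 71.3 CPM, or 11.5 CPM per kb. Lower averages were those of mGluR, a metabotropic glutamate receptor gene, at 9.05 CPM, Cadps, which acts in dense-core vesicle release, at 7.22, and Syt7, a synaptotagmin, at 2.05 CPM. Of the pan-neural markers, elav averaged 18.9 ± 7.06 and 17.3 ± 4.95 CPM (SD, n = 10 and 12) in the earlier and later series, and brp 2.19 ± 3.61 and 0.830 ± 0.821 CPM. The part of neural cells in the level of unc-13 was not tested.

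Pumps and carriers ranged from PMCA, the calcium pump of the plasma membrane, at 320.1 CPM (249 to 430.0), to JYalpha with 4 counts. Zip102B, of the zinc transporter family, averaged 38.4 CPM. Rfabg, the lipophorin precursor made mainly by the fat body, averaged 65.7 CPM and ranged from 34.2 to 147 CPM, with the highest value in day 4 replicate 1. That library also had the highest sum of the fat body list, 629.8 CPM, all of it Yp1. The next highest value of Rfabg, 102 CPM in day 7 replicate 3, came with a sum of 66.8 CPM. Lsp2, Fbp1 and Fbp2 of the fat body list were at or near 0 (means of at most 0.235 CPM in either series). These genes are known mainly from larvae, so their low levels do not show whether adult fat body was present. Yp1, which follicle cells also make, fell from 181 ± 175 to 32.3 ± 27.1 CPM (adjusted p = 7.26e-05 by edgeR). The part of fat body in the level of Rfabg was not tested. Rad23, a receptor of ubiquitinated proteins that also acts in nucleotide excision repair, measured 87.8 to 177 CPM (median 119.5) in the 10 libraries of days 1 to 4 and 116 to 204.97 CPM (median 149) in the 12 of days 5 to 8, and Thd1, a thymine DNA glycosylase, averaged 264 CPM. Of cytoskeletal genes, Ank, an ankyrin that ties membrane proteins to spectrin, measured 229 to 391 CPM (median 299.5) in the 10 libraries of days 1 to 4 and 266 to 379.9 CPM (median 338) in the 12 of days 5 to 8, Slip1 averaged 58.5 CPM and the kinesin gene Kif3C 1.39 CPM.

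Of the 10 genes highest per length, 3 stood in no role list. CG11076, for which no role is given here, measured 122 to 229 CPM (median 168) in the 10 libraries of days 1 to 4 and 106 to 204.71 CPM (median 155) in the 12 of days 5 to 8. It overlaps ATPsynbeta on the opposite strand, a gene at 1142 to 1749 CPM, and the sources used here do not say whether counting used the strand, which leaves its level uncertain. CG11077, named Mpv17 in the current gene table after a mitochondrial membrane protein, stood at 52.0 CPM per kb with a joined exon length of 687 bp, and varied from 12.1 to 62.1 CPM. Arf102F, a small GTPase of vesicle traffic, stood at 38.9 CPM per kb. CG32000, just outside this group at 35.1 CPM per kb, encodes a P5-type ATPase and averaged 229 CPM.

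As a sum, all 79 mRNA genes of the chromosome held 0.987% to 1.17% of the gene counts of a library. The 72 genes held between 0.494% and 0.648%. The share was 0.563% ± 0.0391 of gene counts on days 1 to 4 (SD, n = 10, from 0.517% to 0.648%) and 0.554% ± 0.0307 on days 5 to 8 (SD, n = 12, from 0.494% to 0.594%). The series overlapped over most of their range. By day the mean lay between 0.524% on day 5 and 0.583% on day 1. The libraries lacking spike-in had 0.543%, 0.518% and 0.517%, against 0.540% to 0.648% in the other 7 of days 1 to 4. No p is given for this sum, because the genes were chosen with results known.

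**Figure D3:**
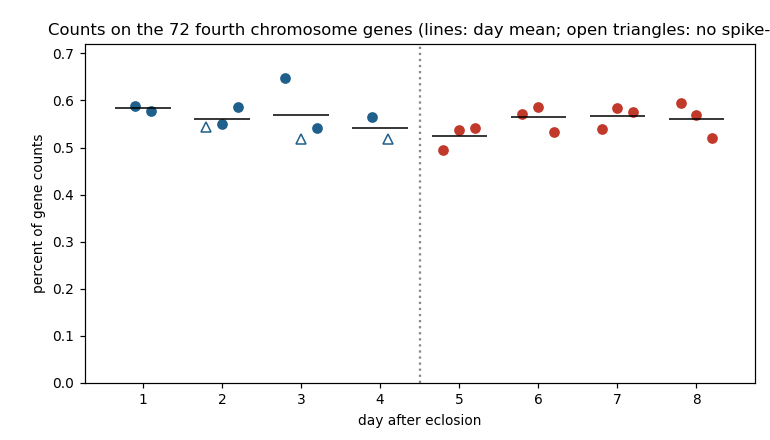
Share of gene counts on the 72 genes of the fourth chromosome (y axis, percent) in each of 22 libraries by day after eclosion (x axis), with day means as lines and the 3 libraries lacking spike-in as open triangles. Values run from 0.494% to 0.648%, with the highest in day 3 replicate 1, and the series on both sides of the dotted line overlap.

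Between the age series, 7 of the 61 genes that passed the filter on low counts passed the test, 5 higher and 2 lower on days 5 to 8. That is 11.5% of those tested, beside 8.82% of all 8024 genes tested, with 4.06% higher and 4.76% lower, by edgeR's quasi-likelihood test at an adjusted p under 0.05. The remaining 11 of the 72 were too low to test. At an unadjusted p under 0.05 there were 16 of 61 genes, or 26.2%, beside 23.7% of all genes. The median change of the 61 was 0.04 on the log2 scale, with 37 of them above 0, beside -0.02 for all genes tested. In none of the 61 did the series fail to overlap, beside 0.137% of all genes with every later library above and 0.224% with every later library below. The share called was thus near that of the genome, and the changes described next are those of single genes. The higher genes were CG31999, CG11360, Zyx, CG33978 and CaMKII, and the lower ones CG11155 and Mitf. None but Mitf stood in a role list, although CaMKII is a kinase, CG11155 a predicted glutamate receptor gene and Zyx a gene of focal adhesions. The role lists are thus incomplete. The count of 7 dropped to 4 without replicate 1 of days 1, 4 or 8 or replicate 2 of day 7.

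CG31999 (FBgn0051999, 215009 to 227748 on the minus strand), for which no role is given here, had the smallest adjusted p. Its level was 12.9 to 39.2 CPM (median 20.7) in the 10 libraries of days 1 to 4 and 28.9 to 61.0 CPM (median 42.3) in the 12 of days 5 to 8. Of the 12 later libraries 8 lay above the highest earlier one, day 3 replicate 1, and 12 lay above the earlier median. The level rose from 23.1 ± 9.32 CPM (SD, n = 10) to 42.8 ± 9.43 CPM (SD, n = 12), a log2 change of 0.91 ± 0.16 (SE, adjusted p = 0.00109). Within the earlier series the libraries lacking spike-in averaged 23.0 CPM and the others 23.2 CPM. CG11360 (FBgn0039920, 671142 to 690650 on the plus strand), likewise without a stated role, measured 45.0 to 87.2 CPM (median 60.1) in the 10 libraries of days 1 to 4 and 68.9 to 114 CPM (median 85.7) in the 12 of days 5 to 8. Of the later libraries 5 exceeded every earlier one, and day 1 replicate 2 was the highest of the earlier ones. It rose from 64.4 ± 13.2 CPM (SD, n = 10) to 85.1 ± 12.3 CPM (SD, n = 12) (log2 change 0.43 ± 0.09, SE, adjusted p = 0.00609).

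Zyx (FBgn0011642, 1057365 to 1065001 on the minus strand) encodes zyxin, an actin-binding protein of focal adhesions that also acts in the Hippo pathway. It measured 28.3 to 54.5 CPM (median 43.3) in the 10 libraries of days 1 to 4 and 48.6 to 72.6 CPM (median 54.9) in the 12 of days 5 to 8. Here 7 of the 12 later libraries were above the highest earlier library, and the lowest earlier values were those of day 2 replicate 3 and day 4 replicate 1. Zyx rose from 41.7 ± 8.43 CPM (SD, n = 10) to 57.7 ± 8.11 CPM (SD, n = 12), a log2 change of 0.45 ± 0.11 (SE, adjusted p = 0.0116). It overlaps Rfabg on the opposite strand, whose log2 change was 0.01 ± 0.20 (adjusted p = 0.996). CG31999, CG11360 and Zyx kept an adjusted p under 0.05 whichever of the 22 libraries was left out, with highest values of 0.00556, 0.0281 and 0.0464, and without the libraries lacking spike-in.

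CG11155 (FBgn0039927, 1126602 to 1137919 on the plus strand), which encodes a predicted subunit of ionotropic glutamate receptors, was the larger of the falls. It measured 5.66 to 18.0 CPM (median 8.05) in the 10 libraries of days 1 to 4 and 0.643 to 10.6 CPM (median 4.73) in the 12 of days 5 to 8. The highest values were day 1 replicate 2 and day 3 replicate 1, at 18.0 and 17.9 CPM. The lowest were day 8 replicates 2 and 3, at 1.43 and 0.643 CPM. These rest on 6 and 2 counts, the latter under the floor of 3 counts. The mean fell from 10.02 ± 4.73 CPM (SD, n = 10) to 5.27 ± 2.97 CPM (SD, n = 12) (log2 change -1.005 ± 0.27, SE, adjusted p = 0.0223). Without day 1 replicate 2 the call was lost (adjusted p = 0.0772). Mitf (FBgn0263112, 1198852 to 1224467 on the plus strand) measured 79.6 to 125 CPM (median 103) in the 10 libraries of days 1 to 4 and 61.0 to 111 CPM (median 81.1) in the 12 of days 5 to 8. Only 1 later library, day 7 replicate 3, exceeded the earlier median, and Mitf fell from 102 ± 13.3 CPM (SD, n = 10) to 81.7 ± 13.6 CPM (SD, n = 12) (log2 change -0.31 ± 0.09, SE, adjusted p = 0.0348).

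CaMKII (FBgn0264607, 1035288 to 1053703 on the minus strand), a calcium-dependent protein kinase best known from synapses, measured 79.8 to 126 CPM (median 104) in the 10 libraries of days 1 to 4 and 91.1 to 148 CPM (median 124) in the 12 of days 5 to 8. It rose from 102 ± 12.6 CPM (SD, n = 10) to 123 ± 15.8 CPM (SD, n = 12) (log2 change 0.29 ± 0.09, SE, adjusted p = 0.0368), with 6 later libraries above every earlier one. With replicate number added to the edgeR fit, the adjusted p of CaMKII was 0.0517. CG33978 (FBgn0053978, 157575 to 175639 on the minus strand), of no stated role, was low and uneven at 0 to 12.8 CPM (median 2.98) in the 10 libraries of days 1 to 4 and 3.24 to 19.2 CPM (median 6.31) in the 12 of days 5 to 8. Its high values were 17.8 CPM in day 5 replicate 1 and 15.7 and 19.2 CPM in day 6 replicates 1 and 2, and it rose from 3.94 ± 3.60 CPM (SD, n = 10) to 8.55 ± 5.95 CPM (SD, n = 12) (log2 change 1.17 ± 0.34, SE, adjusted p = 0.0358). Leaving out 1 library ended the call of Mitf in 10 of 22 cases (adjusted p up to 0.125) and those of CG33978 and CaMKII in 12 each (up to 0.0859 and 0.107), and CG33978 was also lost without the libraries lacking spike-in (adjusted p = 0.0740). Left out singly, the libraries that ended the call of Mitf were replicates 1 and 2 of day 1, 1 and 3 of day 2, 3 of day 3, 1 of day 4, 3 of day 5, 3 of day 6, 2 of day 7 and 1 of day 8. For CG33978 they were replicates 1 and 2 of day 1, 1 of day 2, 2 of day 3, 1 and 2 of day 4, 1 of day 5, 1 and 2 of day 6, 1 and 2 of day 7 and 1 of day 8, and for CaMKII replicates 1 of day 1, 2 of day 2, 2 and 3 of day 3, 1 of day 4, 2 and 3 of day 5, 3 of day 6, 2 and 3 of day 7 and 1 and 3 of day 8.

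**Figure D4:**
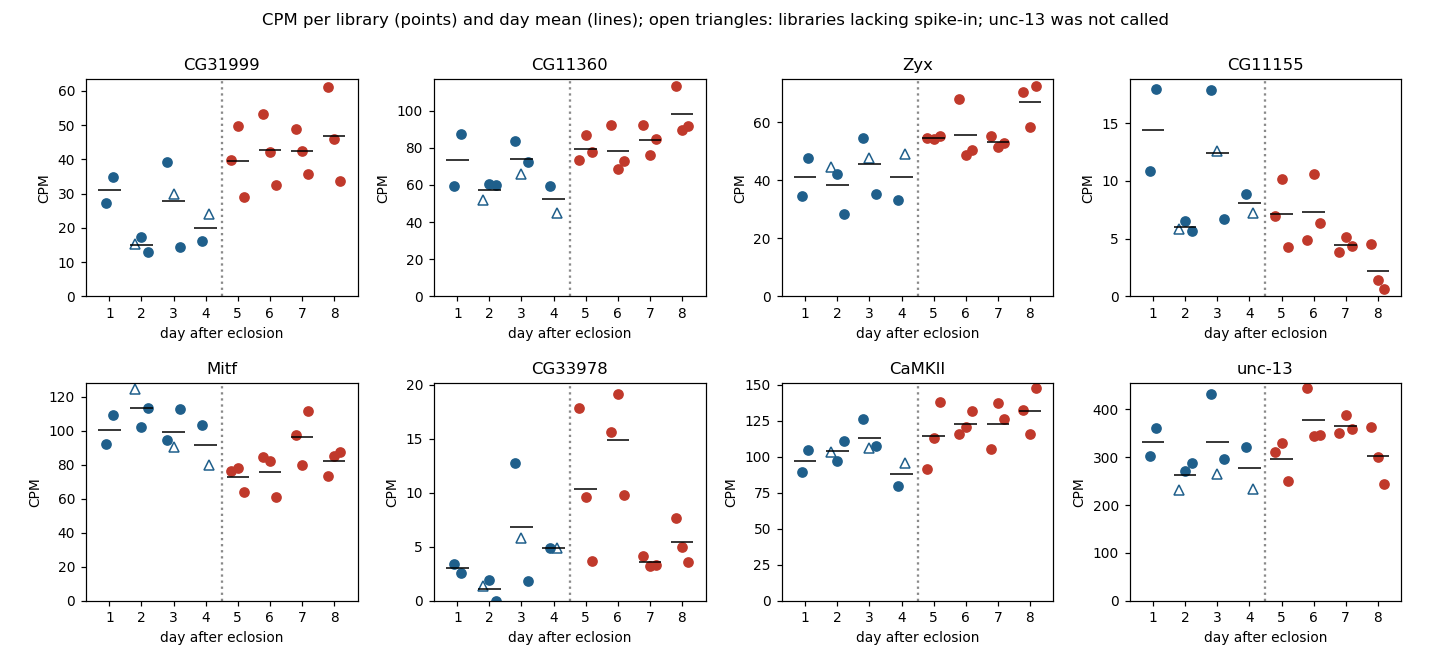
CPM (y axis) of the 7 genes that passed the test between series, and of unc-13, which did not, in each of 22 libraries by day after eclosion (x axis), with day means as lines and libraries lacking spike-in as open triangles. For CG31999 the 12 later libraries lie at 28.9 to 61.0 CPM and the 10 earlier ones at 12.9 to 39.2, and every panel shows overlap between the series.

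Most chorion, vitelline membrane and muscle markers fell between the series, and the lists of other cells were mixed. Of the chorion genes of late egg chambers 9 of 9 fell, from summed levels of 107 to 1632 CPM on days 1 to 4 to 3.77 to 32.7 CPM on days 5 to 8. Of 6 tested vitelline membrane genes 5 fell (259 to 1751 against 40.8 to 287 CPM), and 12 of 14 muscle genes fell (743 to 2563 against 573 to 1003 CPM). Of 8 tested neural genes 1, cpx, fell (22.3 to 196 against 30.6 to 91.8 CPM). Of 4 tested haemocyte genes 3 fell, at sums of 99.0 to 243 against 137 to 208 CPM (medians 155 and 158.5). The other haemocyte gene tested, srp, had a log2 change of 0.42 (adjusted p = 0.101 by edgeR). The fat body list summed to 18.9 to 629.8 against 5.82 to 87.2 CPM, mostly Yp1, with the gene to at 0 counts, and the tracheal list to at most 10.8 and 12.3 CPM. Of 6 follicle cell genes 1, tj, rose, and of 6 germline genes osk rose while nos and vas fell. The part of these cells in the changes of CG31999, CG11360, Zyx, CG33978, CaMKII, CG11155 and Mitf was not tested.

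No other gene passed the test. Among those that averaged 5 CPM or more, the largest estimates upward were Cadps at 0.49 ± 0.30 on the log2 scale (SE, adjusted p = 0.342), Zip102B at 0.32 ± 0.14 (0.170, or 0.0361 without day 2 replicate 1), CG11077 at 0.30 ± 0.22 (0.440), Rad23 at 0.28 ± 0.11 (0.125) and Dyrk3 at 0.24 ± 0.08 (0.0784, or 0.0467 without day 1 replicate 2). Downward they were pan at -0.33 ± 0.16 (0.215), Arf102F at -0.28 ± 0.13 (0.186), CG33521 at -0.20 ± 0.27 (0.714), CaMKI at -0.15 ± 0.10 (0.368) and Asator at -0.11 ± 0.09 (0.502). Arl4 at -0.16 ± 0.16, CG32850, a RING-finger gene, at -0.11 ± 0.23 and CG11076 at -0.11 ± 0.13 changed sign without the libraries lacking spike-in. Below the level for naming, and named here after its values were seen, dati had the most negative estimate, -2.07 ± 0.72 (adjusted p = 0.0800), at a mean of 1.30 CPM, with 8.85 CPM in day 1 replicate 1 and 0 on 4 of the 6 libraries of days 7 and 8.

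The 3 libraries lacking spike-in weighed on some of these. Without them, 10 of 61 genes passed the test, or 16.4%, beside 13.5% of 8563 genes, with 7 higher beside 6.74% and 3 lower beside 6.77%. At an unadjusted p under 0.05 there were 16 genes, 26.2% beside 27.5%. Calls were gained for pan (log2 change -0.49, adjusted p = 0.0451), Rad23 (0.45, 0.0149), Zip102B (0.63, 0.00221) and CG11077 (0.89, 0.00510) and lost for CG33978. Rad23 averaged 159 ± 15.3 CPM in those 3 libraries and 109.5 ± 15.9 CPM in the other 7 of days 1 to 4, beside 151 ± 24.6 CPM later (SD). CG11077 averaged 50.2 ± 10.6, 23.4 ± 7.82 and 39.3 ± 11.1 CPM in the same order. For pan the order was reversed, at 49.6 ± 7.49, 77.3 ± 18.9 and 54.4 ± 12.4 CPM.

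**Figure D5:**
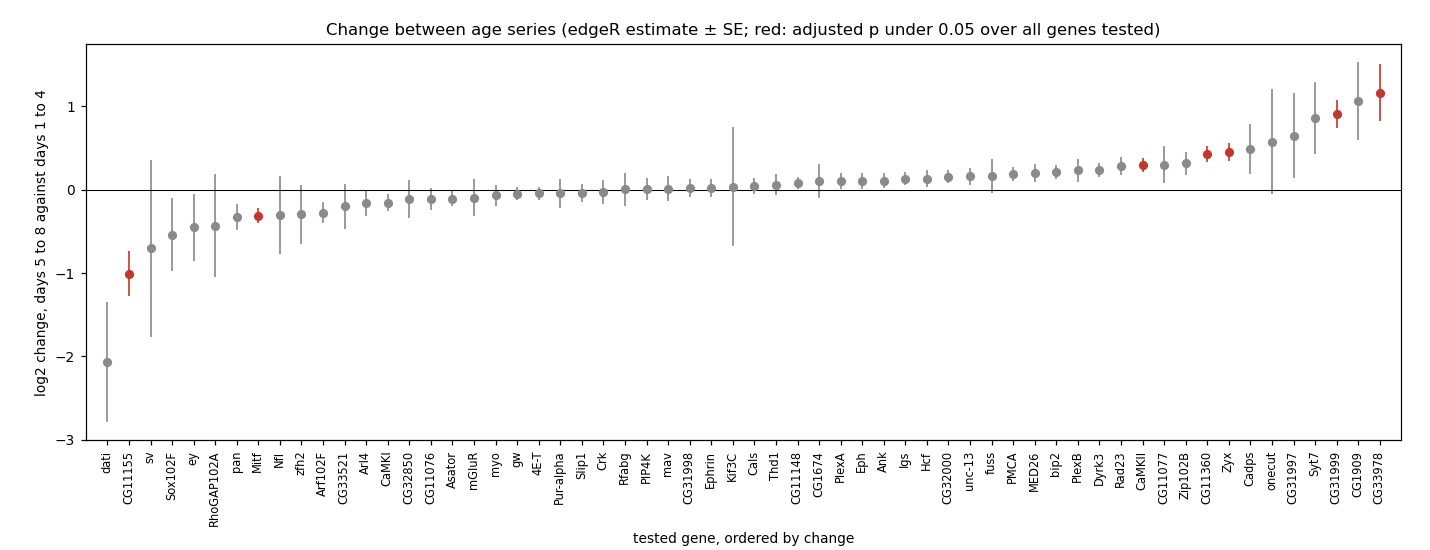
Change between days 5 to 8 and days 1 to 4 on the log2 scale (y axis, edgeR estimate with its standard error) for 60 of the 61 tested genes in order of change (x axis), with the 7 genes at an adjusted p under 0.05 in red. Most genes lie close to 0, and the widest error bars belong to genes of low counts such as sv and dati.

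Among days 1 to 4, none of the 61 genes passed the test of any difference between days, beside 0.0249% of all genes (2 of 8024). At an unadjusted p under 0.05 there were 9 genes, 14.8% beside 8.1% of all genes, and DESeq2 called 1, Cadps. The smallest p-values were those of Cadps, Asator and CG1674. Cadps measured 6.81 and 4.62 CPM on day 1, 1.62, 3.27 and 0 on day 2, 5.11, 6.31 and 3.72 on day 3 and 25.8 and 7.24 on day 4. Its day 4 mean rested on replicate 1. That library had the highest sum of the neural list, 196 CPM, against 35.9 CPM in day 4 replicate 2. ERCC transcripts held 43.5% of its gene and spike-in counts, the highest share of the 22 libraries. The part of neural cells or of library composition in the day 4 level of Cadps was not tested. Its adjusted p was 0.215 by edgeR, 0.0125 by DESeq2 and, by edgeR without day 4 replicate 2, 0.0385. Asator measured 51.7 and 57.4 CPM on day 1 and between 30.7 and 47.2 CPM on days 2 to 4 (adjusted p = 0.453). CG1674, of no stated role, measured 17.0 and 20.5 CPM on day 1, 6.87, 10.3 and 8.09 on day 2, 20.4, 9.46 and 4.83 on day 3 and 7.26 and 5.69 on day 4 (adjusted p = 0.472).

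For day 4 against day 1, none of the 61 genes passed the test, beside 0.0374% of all genes, with 10 at an unadjusted p under 0.05 (16.4% beside 11.5%) and none by DESeq2. The largest estimates among genes of at least 5 CPM were 1.46 ± 0.70 for Cadps, 0.72 ± 0.85 for CG33978 and 0.63 ± 0.27 for Rad23 upward, and -1.58 ± 0.49 for CG1674, -1.39 ± 0.41 for Pur-alpha and -1.35 ± 0.66 for CG33521 downward (log2, SE). Pur-alpha measured 19.7 and 39.0 CPM on day 1 and 8.06 and 13.4 CPM on day 4, with an adjusted p of 0.303.

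Among days 5 to 8, the test of any difference called none of the 61 genes either, beside 0.0125% of all genes (1 of 8024). At an unadjusted p under 0.05 there were 5 genes, 8.20% beside 3.09% of all genes, and DESeq2 called none. The smallest p-values were those of CG33978, Cals and CG11155. CG33978 measured 17.8, 9.60 and 3.71 CPM on day 5, 15.7, 19.2 and 9.79 on day 6, 4.12, 3.24 and 3.30 on day 7 and 7.63, 5.00 and 3.54 on day 8, so that day 7 was low in all of its libraries. Cals measured 92.2, 75.3 and 107 CPM on day 7 and between 56.3 and 80.2 CPM on the other 3 days. CG11155 measured 7.01, 10.1 and 4.24 CPM on day 5, 4.88, 10.6 and 6.38 on day 6, 3.83, 5.13 and 4.40 on day 7 and 4.58, 1.43 and 0.643 on day 8. Each had an adjusted p of 1.

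For day 8 against day 5, none of the 61 genes passed the test, beside 0% of all genes, with 3 genes at an unadjusted p under 0.05 (4.92% beside 2.92%) and none by DESeq2. The estimates of CG11155 and CG33978 were -1.68 ± 0.53 and -0.94 ± 0.56 on the log2 scale, and that of mGluR, the next lower, -0.19 ± 0.41. Upward, fuss, a member of the Ski and Sno family of transcriptional regulators, stood at 0.71 ± 0.37, Cadps at 0.46 ± 0.53 and Asator at 0.40 ± 0.16 (SE). fuss measured 11.1, 14.1 and 23.6 CPM on day 5 and 21.7, 28.3 and 30.2 CPM on day 8.

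The genes whose products bind or silence the fourth chromosome lie elsewhere in the genome and did not pass the test between series in any of 9 cases. Pof averaged 21.8 ± 5.86 and 20.4 ± 5.11 CPM (SD, n = 10 and 12) on days 1 to 4 and 5 to 8, the gene of HP1a 143 ± 30.8 and 144 ± 16.3 CPM, and egg 70.0 ± 10.9 and 71.9 ± 7.83 CPM. The partner of egg, wde, averaged 162 ± 25.7 and 159.6 ± 33.3 CPM, and G9a, another histone methyltransferase, 380.2 ± 76.6 and 334 ± 35.8 CPM. Their log2 changes ran from -0.20 ± 0.10 for G9a to 0.04 ± 0.08 for egg (SE). RNA of Pof and of the heterochromatin protein was thus present in the same libraries as the 57 detected genes, at levels that differed between the series by less than the spread between libraries.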

How the data were processed

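PolyA RNA of 22 anterior ovariole libraries was analysed from the deposited counts. HISAT2 2.0.1, HTSeq 0.6.1p1, CASAVA 1.8.2 and SAMtools 0.1.2 are named in the submitters' processing notes, without their order, and the authors deposited the FlyBase 6.07 annotation. The values are raw counts per feature, in whole numbers. The 1572 transposon insertion features, at 1.46 to 4.11% of counts, and the 96 ERCC spike-in transcripts stayed out of library sizes and tests. How reads shared between features or strands were treated is not stated, and 26 of the 72 genes overlap a gene on the opposite strand.

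CPM were computed with TMM library sizes, and levels per kb with the joined exons of a gene. All genes were fitted with edgeR 4.0.16 in R 4.3.3 (quasi-likelihood F-tests, 1 coefficient per day over 22 libraries, minimum count 10, 8024 genes, residual degrees of freedom 14, biological coefficient of variation 23.2%). P-values were adjusted by Benjamini-Hochberg over all genes, with a threshold of 0.05. The code was tested on simulated data. Between replicates the chi-square per degree of freedom was at least 3.91, so replicates differed by more than sampling noise. Alternatives included DESeq2 1.42.0, other filters, a replicate block and leaving out libraries. The test of whether the change over days differed between series called none of the 61 genes, with 8 at an unadjusted p under 0.05 (13.1%, beside 10.1% of all genes, of which none was called).

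The genes and lists were chosen with earlier results of these data known. Named were the genes called in any comparison, the 10 highest per length, the 10 largest rises and falls between series and the 3 largest within a series at a mean of at least 5 CPM, the 3 smallest p-values of each test of any difference, and up to 4 genes per role list; the remaining genes are described by level. CG17528, placed in the kinase list, is not on this chromosome and was left out. Gyf, apolpp, CG32016, CG9935 and GluRA are no symbols of the deposited annotation. The values of 1 gene are not reported here; it stays in counts, sums and medians. Promoter motifs were not analysed here.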

Additional observations from a re-analysis of the deposited data

Results flagged for a closer look

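Signal was found in genes of the fourth chromosome without an annotated mRNA, which entered none of the comparisons. The long non-coding RNA gene pncr013:4 (467497 to 471476 on the plus strand, FlyBase release 6) had a median of 17.6 CPM over 22 libraries and ranged from 8.90 to 30.1 CPM, with at least 11 counts in every library. It overlaps Asator on the opposite strand, whose mean was 39.7 CPM. CR44029 (879374 to 884752 on the plus strand), inside unc-13 on the opposite strand, had a median of 10.7 CPM and ranged from 4.83 to 19.7 CPM, with at least 8 counts in every library. Both exceeded the limit that a count of 0 allows (3 counts) in all 22 libraries. With the strand setting of the counting not given, the part of reads from Asator and unc-13 in these values was not tested. Single days hold 2 or 3 libraries, too few for a check of outlying samples.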

How the results depend on the processing

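The count of genes called between the series was 7 by DESeq2 and by edgeR with DESeq2 size factors, 5 with no filter on low counts, 6 with the replicate block and 10 without the libraries lacking spike-in. It ranged from 4 to 7 when single libraries were left out. The call of CaMKII was lost with the replicate block (adjusted p = 0.0517) and with no filter (0.0562), and that of Mitf with no filter (0.0743). The median correlation of deviations from day means was 0.05 for 71 same-numbered pairs (-0.51 to 0.39) and -0.02 for the other 140 (-0.39 to 0.58). With 2 or 3 libraries a day, these values cannot decide whether replicate numbers mark a shared source. Among days 1 to 4 the count was 1 by DESeq2 and 1 with no filter, and 0 to 1 when single libraries were left out (1 without day 4 replicate 2), the gene being Cadps, and among days 5 to 8 it was 1 (CG33978) with no filter. Without the libraries lacking spike-in, the log2 change between series turned to 0.075 for Arl4, 0.27 for CG32850 and 0.029 for CG11076. With single libraries left out it ranged from -0.22 to 0.18 for CG32850, above 0 without day 4 replicate 2, and for mGluR, day 8 against day 5, from -0.42 to 0.14, above 0 without day 8 replicate 3. The cause was not tested. Detected genes numbered 59 at 3 counts in at least 11 libraries and 50 at a mean of 1 CPM per kb, and the median level was 8.26 CPM per kb by longest transcript and 8.59 without the libraries lacking spike-in. Depth limits the low genes: 11 were not tested and 22 lay below 1 CPM per kb.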
